A study of Homo sapiens with 9 samples.

Results

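The genes that build, desaturate, elongate, activate and burn fatty acids were followed in a human B-cell lymphoma line and in its derivatives carrying either isoform of the receptor TACI. The set holds 34 genes in 5 roles, all present among the 57500 Ensembl genes of the count tables. Of the 34, 32 had enough counts to be tested, the exceptions being ELOVL7 and ACSL6. Those roles were carbon supply and chain building (6 genes), desaturases (5 genes), elongases (5 genes), acyl-CoA synthetases (5 genes) and the oxidation of fatty acids (13 genes). The rule lists gene names by role, and the set was proposed with earlier results of these data known.

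All libraries came from BJAB, an established line that the labels describe as Burkitt lymphoma. The control group was the parental line, which received neither isoform. TACI long cells had been stably transfected with the long isoform of TACI, and TACI short cells with the short isoform, according to the sample titles; the series text speaks of transduction instead. Every group had 3 libraries, and all cells were untreated per the labels. TACI is the product of TNFRSF13B and a receptor for the cytokines BAFF and APRIL. Per the labels, polyadenylated RNA was taken from sorted cells; the promoter behind each isoform, the number of clones and whether replicates were separate cultures were not given. The replicate spread behind the p-values below may therefore be no more than technical variation from library to library. All 6 B-cell markers reported, among them CD79A and MS4A1, had counts in every library, with summed levels of 2980.1 to 3728 CPM (each count scaled to a library total of 1000000). Of these 6, 2 were higher and 2 lower in TACI long than in control, both of the latter at least 2-fold. In TACI short 0 were higher and 4 lower than in control, 1 of them at least 2-fold, with a median log2 fold change of -0.31. With plain library totals 2 were higher and 3 lower in TACI short. Without TACI short replicates 2 and 3 the median was -0.23. Of all genes tested, 25.2% were higher and 25.9% lower in TACI long, 5.99% at least 2-fold lower. In TACI short 31.5% were higher and 31.1% lower, 2.64% at least 2-fold lower.

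Cells make fatty acids from citrate that leaves the mitochondrion. ATP citrate lyase splits it to acetyl-CoA, acetyl-CoA carboxylase turns this into malonyl-CoA, and fatty acid synthase joins the units into palmitate. Elongases then lengthen the chain in the endoplasmic reticulum, and desaturases place double bonds in it, stearoyl-CoA desaturase giving oleate and the FADS enzymes giving polyunsaturated fatty acids. In the opposite direction, fatty acids are activated to acyl-CoA, enter the mitochondrion through the carnitine shuttle and are shortened in the repeated steps of beta-oxidation. The transcription factors SREBP-1 and SREBP-2, held back by INSIG proteins when sterols are plentiful, are known to switch on the synthetic genes, while PPARA is known for switching on oxidation. Proliferating B cells, lymphoma cells included, draw on both routes for membranes and energy.

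The libraries held 40322136 to 50079203 counts. TNFRSF13B, the gene introduced, stood at 14.6 to 28.8 CPM in control, 691 to 738 CPM in TACI long and 2655 to 2965 CPM in TACI short, so each derived line carried far more of it than control and TACI short the most. Isoform, level of TNFRSF13B, derived line and the act of introducing the gene cannot be told apart in these groups. A difference between the isoforms, as worded below, means TACI short against TACI long. TACI short replicates 2 and 3 stood apart: 32882 and 32209 genes had a count there, against 24307 to 25938 in the other libraries, and 17 myeloid markers summed to 129 and 125 CPM, against 11.8 to 29.9 CPM elsewhere. Of those markers C1QB, C1QC and S100A8 were at 0 in all libraries. The same 2 libraries were highest in COL1A1, a fibroblast collagen, at 3.24, 11 and 10.2 CPM in TACI short against 1.5 to 2.61 CPM in the other groups, and in FABP4, a lipid-binding protein of adipocytes and macrophages, at 0.54, 8.18 and 7.55 CPM against 0.739 to 1.42 CPM. These are 2 of a list of 13 epithelial, fibroblast, adipocyte and liver markers, whose sum was mostly EPCAM. The sum was 82, 98.5 and 96.2 CPM in TACI short replicates 1, 2 and 3. It was 99.1 to 102 CPM in control and 115 to 122 CPM in TACI long. Of 5 tested epithelial, fibroblast, adipocyte and liver markers, 2 were higher in TACI short than in control, both at least 2-fold, and 1 lower. These 5 had a median log2 fold change of 1.56, or -0.41 with the same 2 libraries left out. Among all genes tested in that comparison, 31.5% were higher, 11.8% at least 2-fold, and 31.1% lower. Counts on 5 genes are too few to set these markers apart from all genes. In such bulk libraries, the number of cells of a type and the RNA per cell cannot be told apart. Whether the myeloid, COL1A1 and FABP4 transcripts came from other cells or from the BJAB cells themselves was not tested. The tests used TMM scaling, which corrects for composition, whereas CPM values use the plain totals. The difference between the scales amounted to 0.13 on the log2 scale for the median gene in TACI short against either other group, with the plain totals giving the higher value for TACI short, and to 0.00 in TACI long against control. A difference that involves TACI short is therefore slightly more positive in CPM than in the fitted log2 fold changes, which are given below with their standard errors (SE) and Benjamini-Hochberg adjusted p.

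The following promoter windows are printed here because the genes behind them carried the contrasts that follow. SCD and SCD5 are desaturases of the same reaction that moved in opposite directions in TACI long, FADS1 and FADS3 are close neighbours that moved in opposite directions in TACI short, and HADHA shares its promoter region with HADHB, the other subunit of the same enzyme. Each window is the 250 bases upstream of a start site, 5′ to 3′ on the gene's strand, from RefSeq on GRCh38.p14. The gene bounds of the count tables, given below, reach further upstream than these starts. By those bounds the FADS1 and FADS3 windows lie inside their genes, and those of SCD, SCD5 and HADHA overlap theirs. All but the FADS3 window hold counted exon bases of their gene. Capitals mark every match to the CCAAT box (CCAAT, or ATTGG on the other strand) and to the GC box (GGGCGG, or CCGCCC on the other strand). The windows lie at chr10:100346983-100347232 (plus strand) for SCD, chr4:82798797-82799046 (minus) for SCD5, chr11:61817004-61817253 (minus) for FADS1, chr11:61891546-61891795 (minus) for FADS3 and chr2:26244633-26244882 (minus) for HADHA.
SCD: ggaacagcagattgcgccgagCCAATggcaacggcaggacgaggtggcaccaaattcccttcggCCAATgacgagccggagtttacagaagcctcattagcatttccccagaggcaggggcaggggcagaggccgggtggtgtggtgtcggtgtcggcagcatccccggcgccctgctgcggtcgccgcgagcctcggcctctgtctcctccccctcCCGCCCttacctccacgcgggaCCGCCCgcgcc
SCD5: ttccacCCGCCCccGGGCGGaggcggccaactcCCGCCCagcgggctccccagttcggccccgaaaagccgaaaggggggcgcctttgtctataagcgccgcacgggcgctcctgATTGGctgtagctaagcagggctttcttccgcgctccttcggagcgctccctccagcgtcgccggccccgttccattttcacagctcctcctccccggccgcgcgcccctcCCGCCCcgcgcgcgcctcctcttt
FADS1: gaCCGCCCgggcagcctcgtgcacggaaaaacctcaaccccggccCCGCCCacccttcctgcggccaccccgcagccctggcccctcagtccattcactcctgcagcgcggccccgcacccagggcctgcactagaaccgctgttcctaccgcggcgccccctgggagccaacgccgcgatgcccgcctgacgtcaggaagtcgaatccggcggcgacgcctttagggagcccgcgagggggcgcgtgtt
FADS3: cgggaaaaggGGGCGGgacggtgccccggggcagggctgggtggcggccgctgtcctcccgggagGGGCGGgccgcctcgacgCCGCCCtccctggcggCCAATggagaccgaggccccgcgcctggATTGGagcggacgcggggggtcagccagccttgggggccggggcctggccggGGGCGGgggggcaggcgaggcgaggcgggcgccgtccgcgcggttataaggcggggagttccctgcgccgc
HADHA: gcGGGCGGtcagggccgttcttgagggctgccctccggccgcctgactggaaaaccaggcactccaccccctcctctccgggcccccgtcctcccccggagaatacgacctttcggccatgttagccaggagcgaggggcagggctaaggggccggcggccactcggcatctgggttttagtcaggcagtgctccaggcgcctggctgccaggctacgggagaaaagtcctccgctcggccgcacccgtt

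Searched on both strands, the CCAAT box was present in 32.0% of all 35116 windows of that length, and the GC box in 42.6%. Of the 32 fatty acid genes that matched a RefSeq window by symbol (52 windows, since some have several start sites), 15 windows, of 13 genes, held a CCAAT box and 35 windows, of 28 genes, a GC box. TCACNCCAC, a form of the sterol regulatory element, was found in 0.883% of all windows and in those of ACSL1 and ACSL6. CACGTG, the E-box that SREBP and MLX family factors can also bind, was found in 6.34% of all windows and in those of ELOVL4 and ELOVL5. A CCAAT box and a GC box that share bases would both be counted. These matches describe letters in a window, not sites of binding. FASN and ACAA1 had no entry. The start sites of HADHA and HADHB lay 307 bases apart on opposite strands, and their windows had 194 bases in common.

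In TACI long, 24 of the 32 tested fatty acid genes differed from control at an adjusted p under 0.05, 10 higher and 14 lower, and their median log2 fold change was -0.08. For comparison, 51.1% of the 16672 genes tested were called in this comparison (25.2% higher, 25.9% lower), with a median of -0.00. In TACI short, 24 genes were called, 5 higher and 19 lower (median -0.21), where 62.6% of all genes were called (31.5% higher, 31.1% lower; median 0.03). Between the isoforms 28 genes were called, 13 higher and 15 lower in TACI short (median -0.00), where 68.8% of all genes were called (35.2% higher, 33.6% lower; median 0.05). Both comparisons with control use the same 3 control libraries. With plain library totals the split in TACI short against control became 7 higher and 14 lower.

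Few of these genes changed by a factor of 2 or more. In TACI long, SCD5 and ACAA2 were at least 2-fold higher, a size reached by 3.12% of all genes, and FASN, SCD, FADS1 and ACSL4 were at least 2-fold lower, as were 5.99% of all genes. In TACI short, ME1 and ACADS were at least 2-fold higher (11.8% of all genes), and FASN, SCD5 and FADS1 at least 2-fold lower (2.64% of all genes). Against TACI long, TACI short was at least 2-fold higher in SCD, ME1 and ACADS (16.1% of all genes) and at least 2-fold lower in SCD5 and ACAA2 (3.84% of all genes). ME1 and ACADS were near the detection limit and followed the 2 TACI short libraries that stood apart, as described further on.

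**Figure D1:**
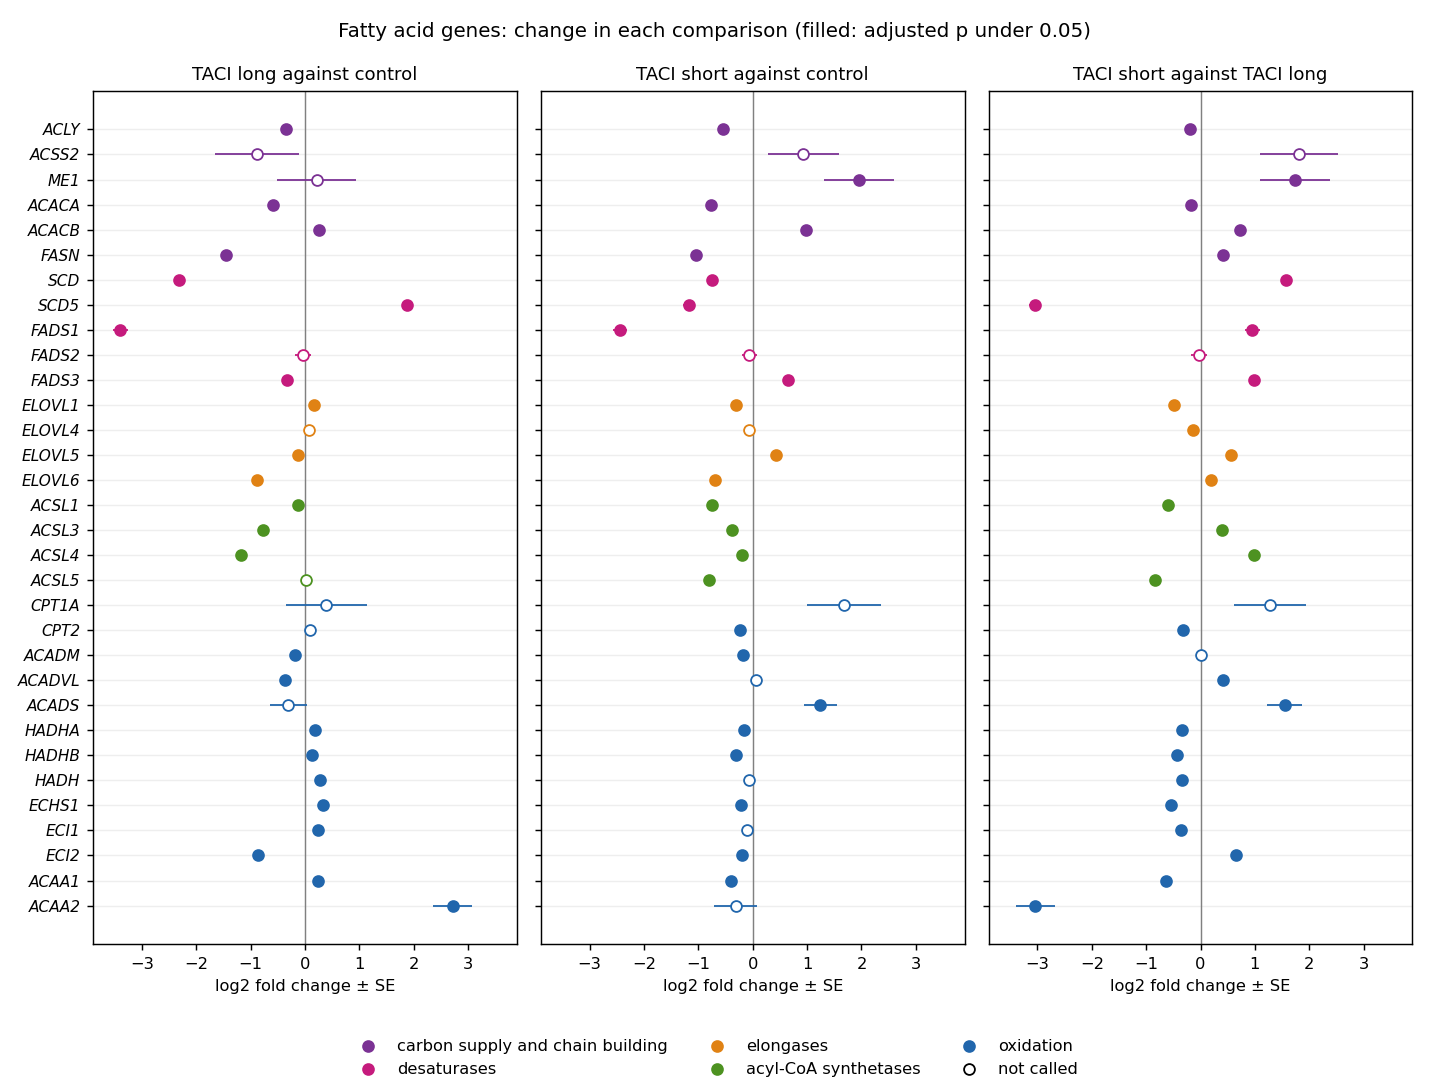
Log2 fold change of the 32 tested fatty acid genes (rows, coloured by role) in the 3 comparisons (panels), with bars of ± 1 SE from the edgeR fit; filled points passed an adjusted p under 0.05, open points did not. FADS1 lies farthest left in both comparisons with control, SCD5 changes side between the first panel (1.87) and the second (-1.18), and most oxidation genes lie within 0.5 of 0.

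The role groups that build fatty acids and the group that burns them had different counts. Counts of role groups, here and below, are to be read against the shares of all genes tested. Those were 25.2% higher and 25.9% lower in TACI long, and 31.5% and 31.1% in TACI short. Between the isoforms they were 35.2% and 33.6%. Of the 15 tested synthesis, desaturation and elongation genes, 3 were higher and 8 lower in TACI long (median -0.34), and 4 were higher and 8 lower in TACI short (median -0.32). Of the 13 oxidation genes, 7 were higher and 3 lower in TACI long (median 0.19), whereas 1 was higher and 7 were lower in TACI short (median -0.17). The count for oxidation in TACI short depended on the scaling: it was 3 higher and 3 lower with plain library totals, and 3 higher and 6 lower with upper-quartile factors. Between the isoforms, synthesis genes were 8 higher and 5 lower in TACI short (median 0.41; 9 higher and 3 lower with plain totals), and oxidation genes 3 higher and 8 lower (median -0.35). Without TACI short replicates 2 and 3 the synthesis genes were 3 higher and 9 lower against control and 7 higher and 4 lower against TACI long, where their median became -0.07. In that setting the oxidation genes were 0 higher and 7 lower against control and 2 higher and 8 lower against TACI long. The lone remaining TACI short library is then assumed to vary like those of the other groups.

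The main line of synthesis, ACLY, ACACA and FASN, was lower in both derived lines than in control. FASN (ENSG00000169710, chromosome 17, 82078333 to 82098332, minus strand, hg38) encodes fatty acid synthase, which carries all the steps of palmitate synthesis on a single chain. Its RNA stood at 1563, 1611 and 1649 CPM in the 3 control libraries, 549, 599.8 and 609 CPM in those of TACI long and 867, 884 and 805 CPM in those of TACI short. The 3 groups did not overlap, and TACI short lay between the others. The log2 fold change was -1.45 ± 0.05, adjusted p = 2.89e-17 in TACI long (2.74-fold lower) and -1.04 ± 0.05, adjusted p = 1.02e-14 in TACI short (2.06-fold lower). TACI short was thus above TACI long, by 0.41 ± 0.05, adjusted p = 6.11e-08.

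ACACA (ENSG00000278540, chromosome 17, 37084988 to 37406818, minus strand) encodes the cytosolic acetyl-CoA carboxylase that makes malonyl-CoA for synthesis. Its level was 158, 168 and 161 CPM in the 3 control libraries, 104, 111 and 108 CPM in those of TACI long and 102, 105 and 106 CPM in those of TACI short. Every control library lay above every library of the derived lines, which overlapped each other in CPM. ACACA fell by 0.59 ± 0.04 on the log2 scale in TACI long (adjusted p = 3.07e-11) and by 0.77 ± 0.04 in TACI short (adjusted p = 1.96e-13). Between the isoforms the fitted difference was -0.18 ± 0.04, adjusted p = 0.000606; with plain library totals it was -0.05 with adjusted p = 0.232, so that call rests on the scaling.

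ACLY, which supplies cytosolic acetyl-CoA from citrate (ENSG00000131473, chromosome 17, 41866908 to 41930542, minus strand), was lowest in TACI short, as ACACA was. It measured 619.5, 626 and 613 CPM in control, 472, 487 and 490.1 CPM in TACI long and 469, 456 and 462 CPM in TACI short. All control libraries were above all others, and the log2 fold change was -0.36 ± 0.04, adjusted p = 1.49e-07 in TACI long and -0.55 ± 0.04, adjusted p = 7.84e-11 in TACI short. The isoforms differed by -0.19 ± 0.04, adjusted p = 0.00028, with TACI short the lower.

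ACACB, the acetyl-CoA carboxylase of the mitochondrial surface, whose malonyl-CoA is known to block entry of fatty acids through CPT1, went the other way. It measured 6.61, 7.05 and 7.35 CPM in the 3 control libraries, 7.54, 8.07 and 9.48 CPM in those of TACI long and 15.1, 15.8 and 14.4 CPM in those of TACI short (ENSG00000076555, chromosome 12, 109116595 to 109268226, plus strand). The 3 TACI short libraries were 1.97-fold above the controls in the fit, with 0.98 ± 0.08, adjusted p = 6.91e-10 against control and 0.72 ± 0.08, adjusted p = 6.28e-08 against TACI long. In TACI long the difference was 0.26 ± 0.09, adjusted p = 0.0155; it missed the threshold without control replicate 1 (0.22, adjusted p = 0.0731) and without TACI long replicate 3 (0.16, adjusted p = 0.206).

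ACSS2, which makes acetyl-CoA from acetate, and ME1, the malic enzyme that supplies NADPH, were near the detection limit. ACSS2 had 12, 22 and 14 counts in the control libraries, 7, 11 and 7 in TACI long and 5, 48 and 47 in TACI short, and passed in no comparison (adjusted p of 0.389, 0.248 and 0.0508). ME1 had 11, 13 and 10 counts in control, 15, 11 and 12 in TACI long and 9, 68 and 68 in TACI short. In both genes TACI short replicates 2 and 3 had the most counts of the 9 libraries and TACI short replicate 1 the fewest. The role group as a whole had 1 of 6 genes higher and 3 lower in TACI long, and 2 higher and 3 lower in TACI short, or 1 higher and 4 lower without TACI short replicates 2 and 3.

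Desaturases held the deepest falls in both derived lines, and related desaturases moved apart. In TACI long, 3 of 5 fell and 1 rose, and in TACI short 3 fell and 1 rose, SCD5 being the gene that rose in TACI long and FADS3 in TACI short. SCD (ENSG00000099194, chromosome 10, 100347124 to 100364834, plus strand), the main stearoyl-CoA desaturase of human tissues, had the highest level per length of all 34 genes in control, 706 ± 20.2 TPM (the share of transcripts, which divides by exon length; mean ± SD, n = 3). It measured 1049, 1110 and 1089 CPM in the 3 control libraries, 217, 218 and 217 CPM in those of TACI long and 709, 706 and 703 CPM in those of TACI short. The groups were far apart and the replicates close, with 217 to 218 CPM across TACI long.

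SCD was 4.97-fold lower in TACI long than in control (log2 fold change -2.31 ± 0.04, adjusted p = 3.3e-22) and 1.68-fold lower in TACI short (-0.74 ± 0.04, adjusted p = 2.54e-13). The isoforms differed 2.97-fold, with TACI short the higher (1.57 ± 0.04, adjusted p = 2.68e-19). Its window printed above holds 2 CCAAT boxes and 2 GC boxes. SCD5, the second human stearoyl-CoA desaturase (ENSG00000145284, chromosome 4, 82629539 to 82798857, minus strand), measured 3.33, 4.18 and 3.86 CPM in control, 13.1, 13.8 and 14.6 CPM in TACI long and 1.82, 1.79 and 1.88 CPM in TACI short. Here the order was TACI long, control, TACI short, and no groups overlapped.

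SCD5 was 3.66-fold higher in TACI long than in control (1.87 ± 0.10, adjusted p = 1.42e-13) and 2.26-fold lower in TACI short (-1.18 ± 0.11, adjusted p = 1.92e-09). TACI short was 8.28-fold below TACI long (-3.05 ± 0.11, adjusted p = 2.73e-17). Its window holds 1 CCAAT box, on the other strand, and 4 GC boxes. Per length, SCD5 stayed the lesser desaturase of the pair in every group, at 3.09 ± 0.35 TPM in control, 11 ± 0.707 TPM in TACI long and 1.53 ± 0.0342 TPM in TACI short, beside 138 ± 2.72 TPM and 473 ± 4.46 TPM of SCD in TACI long and TACI short.

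The FADS genes lie side by side on chromosome 11. FADS1 (ENSG00000149485, 61799625 to 61829318, minus strand) encodes the delta-5 desaturase that makes arachidonate. It measured 12.1, 12.5 and 11.7 CPM in the 3 control libraries, 0.898, 1.18 and 1.34 CPM in those of TACI long and 2.23, 2.23 and 2.8 CPM in those of TACI short. Its fall was the greatest among the 32 tested fatty acid genes in both derived lines: 10.6-fold in TACI long (-3.40 ± 0.14, adjusted p = 9.57e-16) and 5.46-fold in TACI short (-2.45 ± 0.13, adjusted p = 7.6e-14). TACI short was 1.94-fold above TACI long (0.95 ± 0.14, adjusted p = 2.36e-06), and no groups overlapped. FADS1 had 38 to 140 counts a library in the derived lines.

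FADS2, the delta-6 desaturase ahead of FADS1 in the same route (ENSG00000134824, 61792980 to 61867354, plus strand), passed in no comparison. It measured 2.83, 2.89 and 2.59 CPM in control, 3.26, 2.5 and 2.32 CPM in TACI long and 2.75, 2.95 and 3.02 CPM in TACI short, and all groups overlapped. The log2 fold changes were -0.04 ± 0.15 in TACI long, -0.06 ± 0.15 in TACI short and -0.02 ± 0.15 between the isoforms, with adjusted p of 0.858, 0.731 and 0.904. FADS1 and FADS2 share 490 exon bases, 4.79% of FADS1 exons, and FADS2 also overlaps FEN1, which stood at 199 to 243 CPM in the group means. The library kit does not keep the strand, so reads from shared bases cannot be assigned.

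FADS3, whose product desaturates sphingoid bases (ENSG00000221968, 61873519 to 61892051, minus strand), measured 27.1, 25.8 and 27.3 CPM in the 3 control libraries, 20.8, 20.6 and 22.1 CPM in those of TACI long and 49.2, 47.3 and 41.8 CPM in those of TACI short. TACI short was the highest group and TACI long the lowest, without overlap. FADS3 fell by 0.34 ± 0.06 in TACI long (adjusted p = 0.000116) and rose by 0.66 ± 0.06 in TACI short (adjusted p = 4.65e-09), and the isoforms differed by 0.99 ± 0.06, adjusted p = 4.75e-12. In the windows printed above, that of FADS3 holds 2 CCAAT boxes and 4 GC boxes and that of FADS1 no CCAAT box and 2 GC boxes.

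Among elongases, ELOVL6 was lower in both derived lines, ELOVL1 and ELOVL5 moved in opposite directions in TACI long and TACI short, and ELOVL4 did not pass against control. ELOVL6 (ENSG00000170522, chromosome 4, 110045846 to 110199199, minus strand) lengthens palmitate to stearate and so feeds SCD. It measured 66.7, 66.5 and 66 CPM in the 3 control libraries, 35.3, 36.8 and 35.3 CPM in those of TACI long and 45.2, 44.8 and 44.6 CPM in those of TACI short. No groups overlapped, and the order, control above TACI short above TACI long, was that of FASN and SCD. The log2 fold changes were -0.89 ± 0.05, adjusted p = 8.22e-14 in TACI long, -0.69 ± 0.04, adjusted p = 3.9e-12 in TACI short and 0.20 ± 0.05, adjusted p = 0.000595 between the isoforms.

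ELOVL5, which lengthens polyunsaturated chains (ENSG00000012660, chromosome 6, 53267398 to 53349179, minus strand), measured 126, 133 and 129 CPM in control, 121, 116 and 119 CPM in TACI long and 189.7, 189 and 193 CPM in TACI short. TACI short stood clear of both other groups, with 0.43 ± 0.04, adjusted p = 4.37e-09 against control and 0.56 ± 0.04, adjusted p = 3.75e-11 against TACI long. The small fall in TACI long (-0.13 ± 0.04, adjusted p = 0.0149) missed the threshold when any of control replicates 2 and 3 and TACI long replicates 2 and 3 was left out (values of -0.13 to -0.09, adjusted p of 0.0738 to 0.149).

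ELOVL1, which makes very long saturated chains (ENSG00000066322, chromosome 1, 43363397 to 43368074, minus strand), measured 68, 65.3 and 62.7 CPM in control, 73.5, 73.1 and 73.8 CPM in TACI long and 51.8, 59.5 and 61 CPM in TACI short. TACI short was the lowest group, at -0.32 ± 0.05, adjusted p = 8.14e-06 against control and -0.49 ± 0.05, adjusted p = 8.36e-09 against TACI long. The rise in TACI long was 0.17 ± 0.05, adjusted p = 0.00581, and without control replicate 3 it was 0.14 with adjusted p = 0.0675. ELOVL4, which acts on very long polyunsaturated chains (ENSG00000118402, chromosome 6, 79914812 to 79947580, minus strand), measured 64.7, 61.5 and 63.5 CPM in control, 68.9, 65.4 and 65.3 CPM in TACI long and 66.2, 63.9 and 68.4 CPM in TACI short, TACI short overlapping both other groups. Against control it passed in neither line (0.07 ± 0.05, adjusted p = 0.222, and -0.06 ± 0.05, adjusted p = 0.269). Between the isoforms it gave -0.14 ± 0.05, adjusted p = 0.0166, a call lost without TACI long replicate 1 (-0.13, adjusted p = 0.0755), without TACI short replicate 2 (-0.09, adjusted p = 0.0742) and with plain library totals (-0.01, adjusted p = 0.907).

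ELOVL7 (ENSG00000164181, chromosome 5, 60751791 to 60844389, minus strand), an elongase of saturated very long chains, did not have enough counts to be tested. It had 7, 7 and 4 counts in control, 8, 7 and 4 in TACI long and 8, 33 and 41 in TACI short, with only replicates 2 and 3 of TACI short above the rest.

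**Figure D2:**
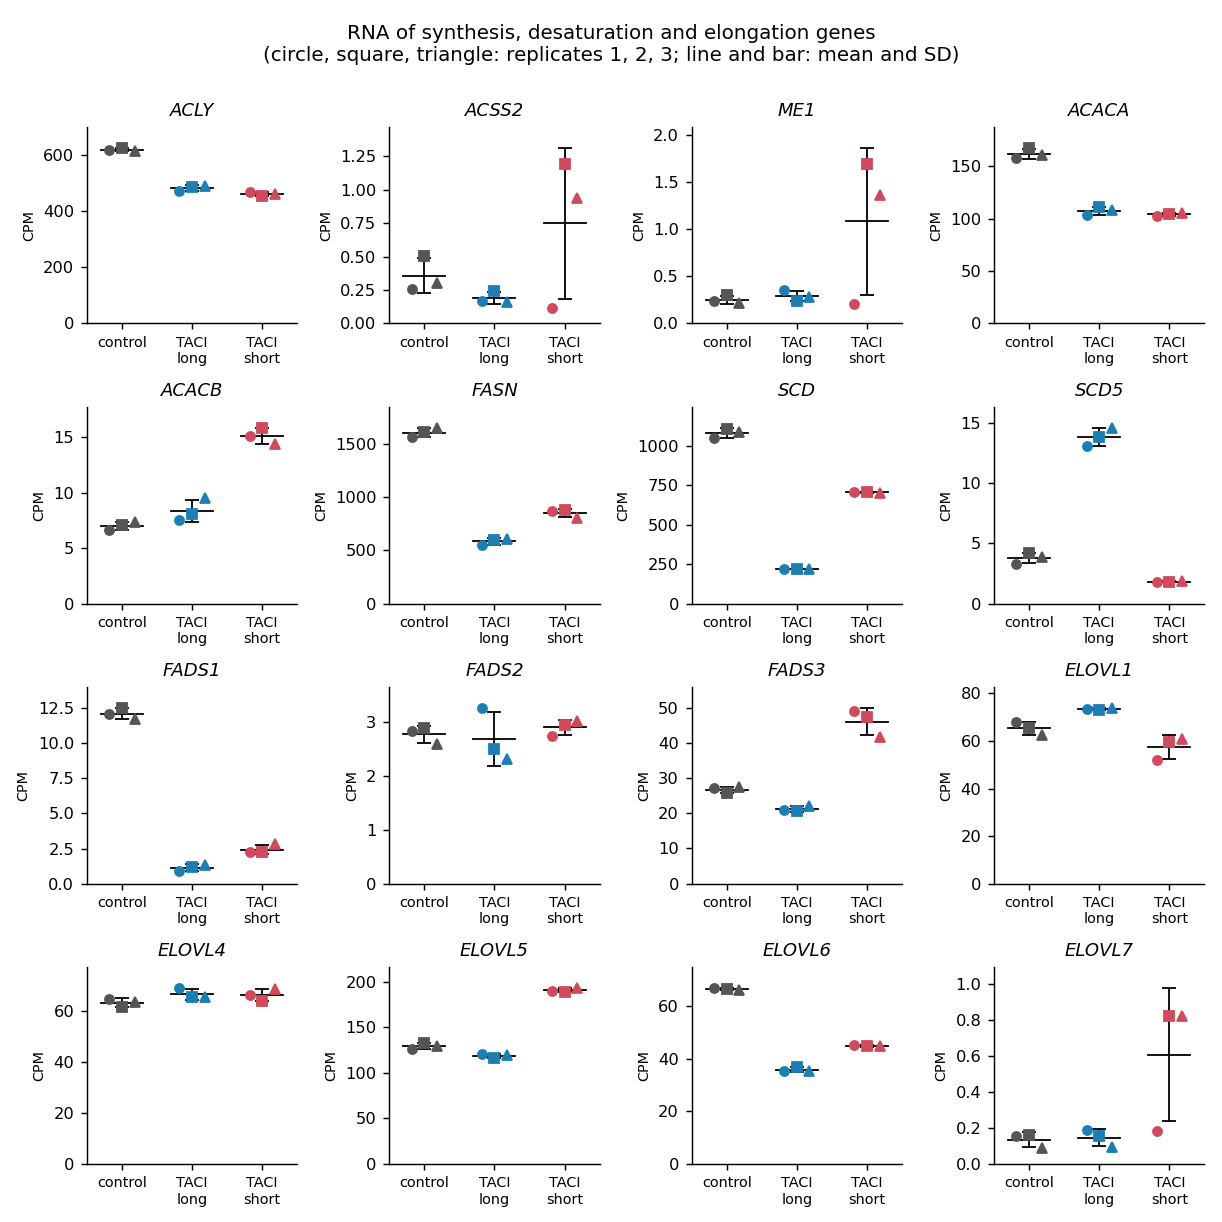
Level in CPM (vertical axes, linear from 0, scaled per gene) of the 16 synthesis, desaturation and elongation genes in the control, TACI long and TACI short libraries; symbols mark replicates 1, 2 and 3, lines and bars the mean and SD. SCD sits at 1049 to 1110 CPM in control, 217 to 218 CPM in TACI long and 703 to 709 CPM in TACI short, SCD5 is highest in TACI long and lowest in TACI short, and the spread in TACI short of ACSS2, ME1 and ELOVL7 comes from replicates 2 and 3 lying above replicate 1.

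Acyl-CoA synthetases, which activate long-chain fatty acids for either storage or burning, fell or did not pass: 3 of 4 tested genes were lower in TACI long and 4 of 4 in TACI short, none higher in either. With plain library totals 3 were lower in TACI short. ACSL4 (ENSG00000068366, chromosome X, 109624244 to 109733403, minus strand), which prefers arachidonate, measured 142, 160.3 and 150.4 CPM in the 3 control libraries, 68, 68.1 and 63.5 CPM in those of TACI long and 137, 142 and 150.3 CPM in those of TACI short. Its fall in TACI long was 2.27-fold (-1.18 ± 0.05, adjusted p = 1.42e-15), and TACI short stood above TACI long by 0.98 ± 0.05, adjusted p = 1.98e-14. Control and TACI short overlapped; the fitted -0.20 ± 0.05 (adjusted p = 0.000645) became -0.07 with adjusted p = 0.181 with plain library totals.

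ACSL3, known from lipid droplet formation (ENSG00000123983, chromosome 2, 222860934 to 222944639, plus strand), measured 74.3, 78.4 and 76.1 CPM in control, 43.2, 45 and 45.2 CPM in TACI long and 63.4, 63.6 and 65.2 CPM in TACI short. It had the order of FASN and SCD without overlap, with -0.78 ± 0.04, adjusted p = 7.61e-13 in TACI long, -0.38 ± 0.04, adjusted p = 7.27e-08 in TACI short and 0.40 ± 0.04, adjusted p = 3.68e-08 between the isoforms. ACSL1 and ACSL5 had another order, with TACI short the lowest group.

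ACSL1 (ENSG00000151726, chromosome 4, 184755595 to 184826818, minus strand) measured 101, 102 and 101 CPM in the 3 control libraries, 89.5, 96.2 and 90.6 CPM in those of TACI long and 61.6, 67.5 and 69.4 CPM in those of TACI short. In TACI short it changed by -0.74 ± 0.04, adjusted p = 1.06e-12 against control and by -0.61 ± 0.04, adjusted p = 2.21e-11 against TACI long. The small difference in TACI long (-0.14 ± 0.04, adjusted p = 0.0122) missed the threshold on leaving out control replicate 1, control replicate 2, TACI long replicate 1 or TACI long replicate 3, with values of -0.14 to -0.12. ACSL5 (ENSG00000197142, chromosome 10, 112374018 to 112428380, plus strand) measured 53.5, 54 and 52 CPM in control, 53.9, 53.9 and 54.5 CPM in TACI long and 33.3, 32 and 34.3 CPM in TACI short. In TACI long it did not pass (0.03 ± 0.05, adjusted p = 0.686), and in TACI short it was lower than in control (-0.81 ± 0.05, adjusted p = 1.12e-12) and than in TACI long (-0.83 ± 0.05, adjusted p = 3.71e-13). It shares 8.64% of its exon bases with ZDHHC6 and another gene model. ZDHHC6 is a gene whose level also went from 34.4 CPM in control to 20.04 CPM in TACI short. How far the shared bases bear on the fall was not tested. ACSL6 had 0 to 1 counts in control and TACI long and 0, 6 and 2 in TACI short, too few to test.

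In TACI long, the subunits and enzymes of the later steps of beta-oxidation were slightly higher than in control, by 0.12 to 0.32 on the log2 scale in HADHA, HADHB, HADH, ECHS1, ECI1 and ACAA1, while ACAA2 was several-fold higher and ACADM, ACADVL and ECI2 were lower. In TACI short, 7 of the 13 genes were lower than in control, with log2 fold changes of -0.40 to -0.16. Between the isoforms all of HADHA, HADHB, HADH, ECHS1, ECI1, ACAA1, ACAA2 and CPT2 were lower in TACI short, which held under every scaling tried.

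HADHA and HADHB encode the alpha and beta subunits of the mitochondrial trifunctional protein, which carries out the later steps of the cycle on long chains. HADHA (ENSG00000084754, chromosome 2, 26190635 to 26244726, minus strand) measured 395, 379 and 381 CPM in the 3 control libraries, 445, 432 and 439 CPM in those of TACI long and 377, 369 and 385 CPM in those of TACI short. HADHB (ENSG00000138029, chromosome 2, 26243170 to 26290468, plus strand) measured 103, 104 and 100.3 CPM in the 3 control libraries, 115, 112 and 107 CPM in those of TACI long and 83.8, 93.3 and 93.1 CPM in those of TACI short. TACI long was the highest group for both genes, and for HADHA control and TACI short overlapped. HADHA changed by 0.19 ± 0.04, adjusted p = 0.000647 in TACI long and by -0.16 ± 0.04, adjusted p = 0.00286 in TACI short. HADHB changed by 0.12 ± 0.04, adjusted p = 0.0228 in TACI long and by -0.32 ± 0.04, adjusted p = 1.33e-06 in TACI short.

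Between the isoforms the pair differed by like amounts, -0.35 ± 0.04, adjusted p = 1.59e-07 for HADHA and -0.44 ± 0.04, adjusted p = 5.76e-09 for HADHB. The 2 genes start head to head, and the HADHA window printed above covers most of that of HADHB. The call for HADHB in TACI long was lost when any control replicate or TACI long replicate 1 was left out (0.09 to 0.13, adjusted p of 0.0559 to 0.195). That for HADHA in TACI short was lost with plain library totals (-0.03, adjusted p = 0.379) and with upper-quartile factors (-0.08, adjusted p = 0.0524).

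ECHS1, the enoyl-CoA hydratase for short chains (ENSG00000127884, chromosome 10, 133362480 to 133373689, minus strand), measured 81.2, 73.7 and 75.5 CPM in control, 99.8, 90.8 and 97.4 CPM in TACI long and 73.8, 67.8 and 74.3 CPM in TACI short. TACI long lay above both other groups, which overlapped. The log2 fold change was 0.32 ± 0.06, adjusted p = 0.000204 in TACI long and -0.54 ± 0.06, adjusted p = 3.49e-07 in TACI short against TACI long. Against control, TACI short gave -0.22 ± 0.06, adjusted p = 0.0042, lost with plain library totals (-0.09, adjusted p = 0.108) and without TACI short replicates 2 and 3 (-0.15, adjusted p = 0.0549).

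HADH, the dehydrogenase for medium and short chains (ENSG00000138796, chromosome 4, 107989714 to 108035175, plus strand), measured 112, 109 and 110.1 CPM in control, 137, 131 and 133 CPM in TACI long and 114, 110.1 and 120.0 CPM in TACI short. It rose in TACI long (0.28 ± 0.05, adjusted p = 2.58e-05), did not pass in TACI short (-0.07 ± 0.05, adjusted p = 0.174) and stood at -0.35 ± 0.05, adjusted p = 5.24e-07 in TACI short against TACI long. ECI1, an isomerase for unsaturated chains (ENSG00000167969, chromosome 16, 2239395 to 2252300, minus strand), measured 88.6, 78.2 and 84.8 CPM in control, 99.7, 97.8 and 101 CPM in TACI long and 91.7, 78.2 and 83.8 CPM in TACI short. TACI long was again the highest group, and control and TACI short overlapped. ECI1 gave 0.25 ± 0.08, adjusted p = 0.0181 in TACI long, -0.11 ± 0.08 with adjusted p = 0.205 in TACI short (-0.12, adjusted p = 0.0318 with a replicate block) and -0.36 ± 0.08, adjusted p = 0.00131 between the isoforms, where the value without TACI short replicates 2 and 3 was -0.22. The call in TACI long was lost on leaving out control replicate 2, control replicate 3, TACI long replicate 1 or TACI long replicate 3 (0.19 to 0.25, adjusted p of 0.0503 to 0.0638).

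ECI2, the other isomerase of unsaturated chains (ENSG00000198721, chromosome 6, 4115689 to 4135597, minus strand), went against ECI1 in TACI long. It measured 72, 68.1 and 71 CPM in the 3 control libraries, 39, 38.3 and 39.2 CPM in those of TACI long and 68, 65 and 67.9 CPM in those of TACI short, so TACI long was well below both other groups. The change was -0.86 ± 0.05, adjusted p = 7.39e-13 in TACI long and 0.66 ± 0.05, adjusted p = 3.27e-11 between the isoforms. In TACI short it was -0.20 ± 0.05, adjusted p = 0.000908, or -0.07 with adjusted p = 0.0965 with plain library totals. ECI2 shares 29.8% of its exon bases with 2 other gene models, both at 0.372 CPM or less in every library.

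ACAA1 is the thiolase of the peroxisome and ACAA2 that of the mitochondrion. ACAA1 (ENSG00000060971, chromosome 3, 38103129 to 38137242, minus strand) measured 37.1, 35 and 38.2 CPM in control, 41.9, 43.5 and 44.3 CPM in TACI long and 33.6, 28.8 and 29.2 CPM in TACI short, without overlap between groups. It was 0.23 ± 0.07, adjusted p = 0.00668 in TACI long (0.19, adjusted p = 0.0525 without control replicate 2) and -0.40 ± 0.07, adjusted p = 6.66e-05 in TACI short (-0.22 without TACI short replicates 2 and 3), and -0.63 ± 0.07, adjusted p = 2.43e-07 between the isoforms. It shares 21.2% of its exon bases with DLEC1, at 0.174 CPM or less in every library, and a Y RNA model.

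ACAA2 (ENSG00000167315, chromosome 18, 49782167 to 49813960, minus strand) had the greatest rise of all fatty acid genes in TACI long. It had 52, 47 and 58 counts in control, 349, 331 and 315 in TACI long and 17, 57 and 63 in TACI short, which is 1.13, 1.08 and 1.24 CPM in the 3 control libraries, 8.25, 7.26 and 7.3 CPM in those of TACI long and 0.383, 1.41 and 1.26 CPM in those of TACI short. TACI long was 6.6-fold above control (2.72 ± 0.36, adjusted p = 0.000527), and the log2 value of TACI short against TACI long was -3.04 ± 0.37, adjusted p = 0.000194. In TACI short against control the gene did not pass (-0.32 ± 0.39, adjusted p = 0.51), and its 3 libraries disagreed: replicate 1 lay below every control library and replicates 2 and 3 above. Without replicates 2 and 3 the values were -1.67 (adjusted p = 3.28e-05) against control and -4.40 against TACI long. Per length it stayed low in control, at 0.793 ± 0.0518 TPM, and reached 5.08 ± 0.293 TPM in TACI long.

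The acyl-CoA dehydrogenases take the first step of the cycle, each on its own range of chain lengths. ACADM, for medium chains (ENSG00000117054, chromosome 1, 75724347 to 75787575, plus strand), measured 303, 297 and 292 CPM in control, 259.7, 269 and 256 CPM in TACI long and 288, 283 and 295 CPM in TACI short. It fell in TACI long (-0.18 ± 0.04, adjusted p = 0.000711) without overlap. In TACI short, which overlapped control, it gave -0.17 ± 0.04, adjusted p = 0.00107, or -0.04 with adjusted p = 0.210 with plain library totals. The difference between the isoforms did not pass (0.01 ± 0.04, adjusted p = 0.795), though their CPM did not overlap and with plain totals the difference was 0.14 and called. ACADM shares 3.28% of its exon bases with RABGGTB, at 79.9 CPM in control, 54.7 CPM in TACI long and 71.6 CPM in TACI short. How far the shared bases bear on the changes of ACADM was not tested.

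ACADVL, for very long chains (ENSG00000072778, chromosome 17, 7217125 to 7225273, plus strand), measured 123, 113 and 117 CPM in control, 87.3, 94 and 91.6 CPM in TACI long and 135, 134 and 131 CPM in TACI short. TACI long was the lowest group and TACI short the highest. The change in TACI long was -0.37 ± 0.05, adjusted p = 4.65e-07 and the difference between the isoforms 0.42 ± 0.05, adjusted p = 2.65e-08. Against control, TACI short gave 0.05 ± 0.05, adjusted p = 0.325, which passed with plain library totals (0.18), upper-quartile factors (0.13) and a stricter filter (0.09). ACADVL shares 1.01% of its exon bases with DLG4, at 7.77 CPM in control, 3.85 CPM in TACI long and 10.6 CPM in TACI short. ACADS, for short chains, is described with the low-count genes below.

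Of the carnitine shuttle, CPT2, the inner-membrane transferase (ENSG00000157184, chromosome 1, 53196429 to 53214197, plus strand), measured 45.4, 45 and 42.8 CPM in the 3 control libraries, 49.4, 46.9 and 45.2 CPM in those of TACI long and 41, 41.9 and 40.9 CPM in those of TACI short. Control and TACI long overlapped (0.09 ± 0.05, adjusted p = 0.132), and TACI short was the lowest group, with -0.23 ± 0.05, adjusted p = 0.00019 against control and -0.32 ± 0.05, adjusted p = 2.68e-06 against TACI long. CPT2 shares 12.0% of its exon bases with CZIB and another gene model, CZIB standing at 30.8 CPM in control and 36.3 CPM in TACI short. CPT1A, the outer-membrane transferase and usual point of control of the pathway, was close to 0 in this line, at 7, 14 and 17 counts in control, 24, 16 and 8 in TACI long and 12, 69 and 51 in TACI short, and passed in no comparison (adjusted p of 0.713, 0.0633 and 0.118).

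**Figure D3:**
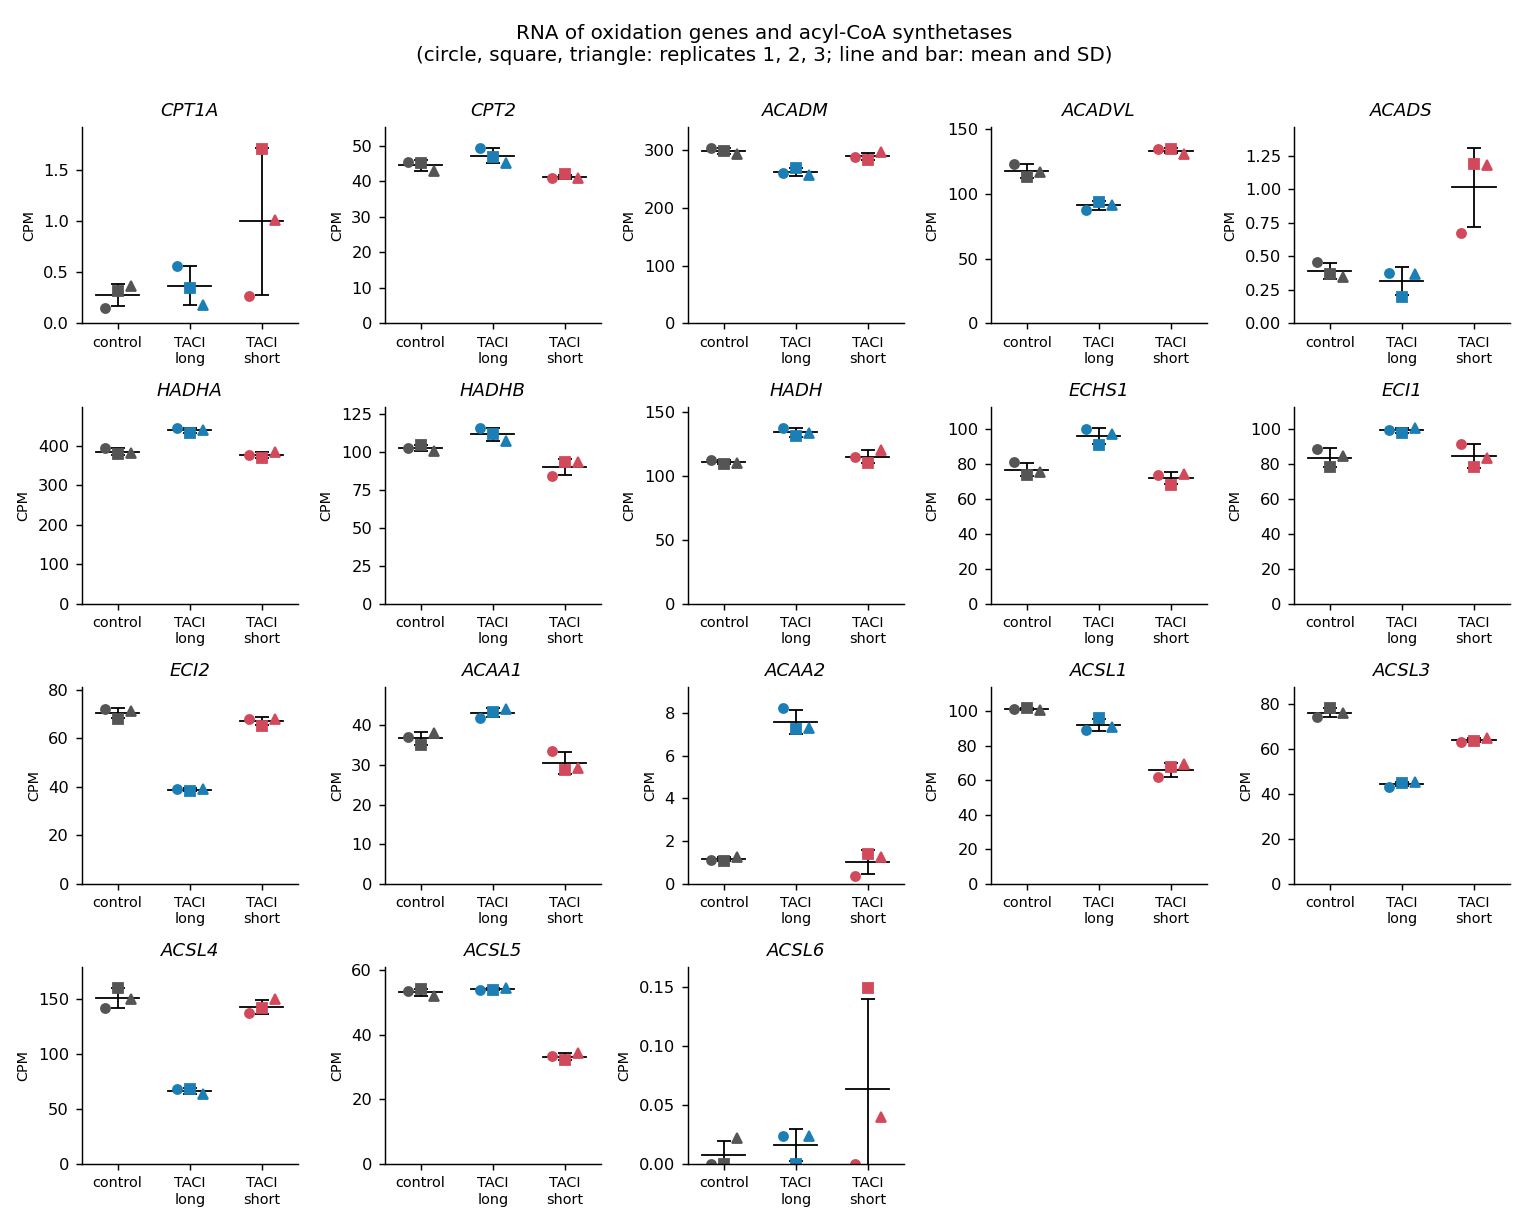
Level in CPM (vertical axes, linear from 0, scaled per gene) of the 13 oxidation genes and 5 acyl-CoA synthetases in the control, TACI long and TACI short libraries; symbols mark replicates 1, 2 and 3, lines and bars the mean and SD, and the SD bar of ACSL6 runs below the axis. TACI long is the highest group for HADHA, HADHB, HADH, ECHS1, ECI1, ACAA1 and ACAA2 and the lowest for ACADM, ACADVL, ECI2, ACSL3 and ACSL4, while ACSL1 and ACSL5 are lowest in TACI short.

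The genes with few counts shared a pattern over libraries. ACADS (ENSG00000122971, chromosome 12, 120725735 to 120740008, plus strand) had 21, 16 and 16 counts in control, 16, 9 and 16 in TACI long and 30, 48 and 59 in TACI short. All TACI short libraries were above all others, and replicates 2 and 3 above replicate 1. The log2 fold change was 1.24 ± 0.31, adjusted p = 0.00122 against control and 1.55 ± 0.32, adjusted p = 0.000151 against TACI long, and without TACI short replicates 2 and 3 it was 0.70 (adjusted p = 0.176) and 1.00 (adjusted p = 0.052). In TACI long ACADS did not pass (-0.30 ± 0.34, adjusted p = 0.498).

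ME1 (ENSG00000065833, chromosome 6, 83210389 to 83431071, minus strand) passed in TACI short with 1.96 ± 0.65, adjusted p = 0.0283 against control and 1.74 ± 0.64, adjusted p = 0.0389 against TACI long, though its groups overlapped. Without TACI short replicates 2 and 3 the signs turned, to -0.39 (adjusted p = 0.619) and -0.61 (adjusted p = 0.387), and 8 of the 9 single libraries left out ended both calls, the exception being TACI short replicate 1. ACSS2 and CPT1A passed without TACI short replicate 1, against control and against TACI long. CPT1A in TACI short against control also passed with plain library totals, upper-quartile factors, the DESeq2 Wald test and no filter on low counts. ACSS2 between the isoforms also passed in those settings and with a replicate block. CPT1A between the isoforms passed with DESeq2 and with no filter, and ACSS2 against control with no filter. Without replicates 2 and 3, ACSS2 in TACI short against control was -1.71, opposite to the 0.93 of the whole group. ME1, ACSS2, CPT1A and ELOVL7 were thus each highest in the 2 libraries with the highest myeloid marker sum, 129 and 125 CPM, and the most genes with a count. Of 9 tested myeloid markers 5 were higher in TACI short than in control, all 5 at least 2-fold, and 0 in TACI long. Of all genes, 31.5% were higher in TACI short, 11.8% at least 2-fold, and 25.2% were higher in TACI long. The part of the myeloid transcripts in the result was not tested. SCD, an abundant gene, stood at 709, 706 and 703 CPM in replicates 1, 2 and 3 of TACI short. Other well-expressed members did separate these libraries in CPM: ELOVL1, HADHB and ACSL1 were lower in replicate 1 than in replicates 2 and 3. ECI1 and ACAA1 were higher in replicate 1.

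**Figure D4:**
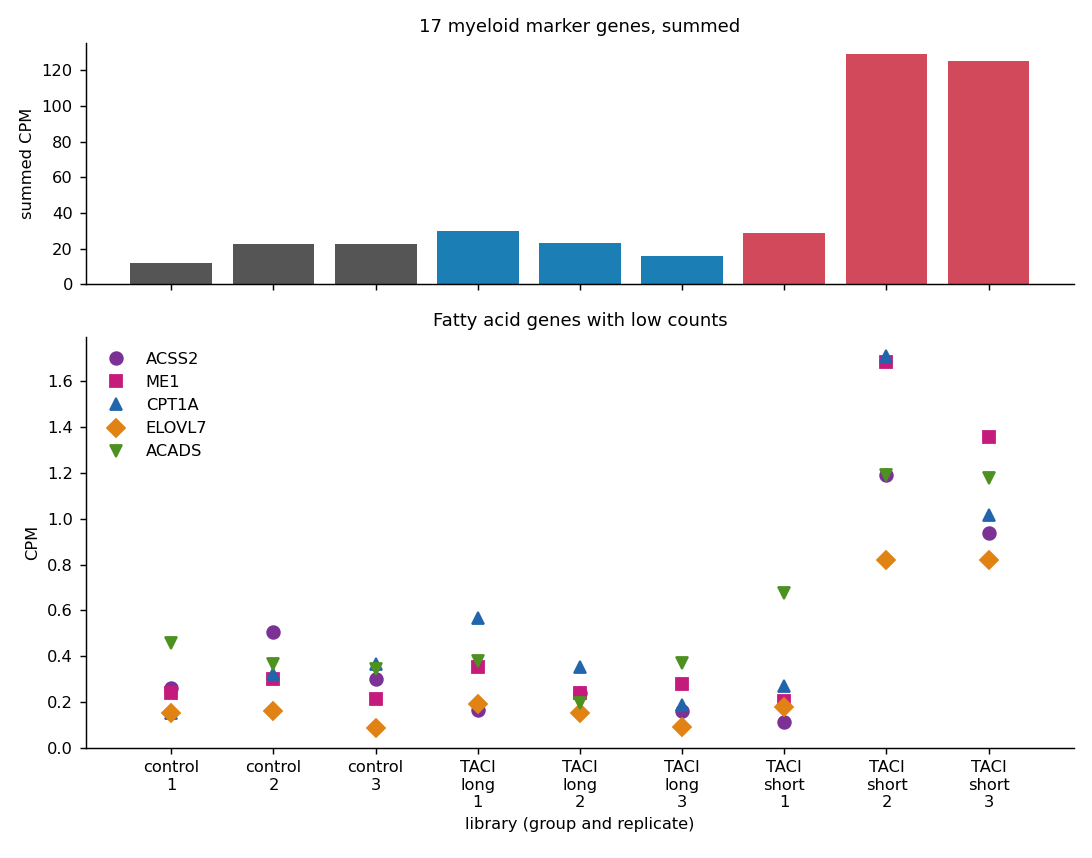
Top, summed CPM of the 17 myeloid markers in each of the 9 libraries (bars from 0). Bottom, CPM of ACSS2, ME1, CPT1A, ELOVL7 and ACADS in the same libraries, one point per gene and library; these genes were picked for this plot after their values were seen. TACI short replicates 2 and 3 stand above the other 7 libraries in both panels.

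Per length, the order of levels in control ran from SCD (706 ± 20.2 TPM) through FASN (600.3 ± 12.7 TPM), ACLY (415 ± 7.2 TPM) and HADHA (353 ± 9.48 TPM) to ACADM (218 ± 5.39 TPM), each neighbour apart by more than its SD. In TACI long the order at the top was another: HADHA led at 391 ± 2.02 TPM, followed by ACLY (314 ± 10.9 TPM), FASN (213 ± 14.8 TPM), ECHS1 (201 ± 7.32 TPM) and ACADM (186 ± 6.8 TPM), with SCD at 138 ± 2.72 TPM. FASN and ECHS1 in TACI long were within the sum of their SDs. TACI short kept SCD at the head, at 473 ± 4.46 TPM, above HADHA (355 ± 6.49 TPM), FASN (327 ± 17 TPM) and ACLY (318 ± 5.48 TPM); the last pair lay within 1 SD. Among acyl-CoA synthetases ACSL4 led in control (82.3 ± 5.1 TPM) and TACI short (80.2 ± 3.28 TPM), whereas ACSL1 (49.8 ± 2.63 TPM) and ACSL5 (43.3 ± 0.791 TPM) were above ACSL4 (35.2 ± 1.36 TPM) in TACI long. The low end in control held ACADS, ME1, ACSS2, CPT1A, ELOVL7 and ACSL6, none above 0.514 TPM.

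Lists of further genes of the pathway were counted in the same way. Of 18 tested control genes, 4 were higher and 7 lower in TACI long, and 6 were higher and 7 lower in TACI short. Against TACI long, 8 were higher and 5 lower in TACI short (9 higher and 3 lower with plain library totals). Without TACI short replicates 2 and 3, the median log2 fold change of these 18 against TACI long went from 0.52 to 0.03. Against control it went from -0.04 to -0.22. The 11, 13 and 13 genes called are to be read against the 51.1%, 62.6% and 68.8% of all genes called in those comparisons, as are the counts of the lists that follow. INSIG1, the sterol-sensing brake on SREBP that is itself an SREBP target, measured 244, 249 and 241 CPM in the 3 control libraries, 41.7, 39.7 and 37.8 CPM in those of TACI long and 171, 171 and 176 CPM in those of TACI short, with log2 fold changes of -2.62 ± 0.05, adjusted p = 2.87e-22 in TACI long, -0.63 ± 0.04, adjusted p = 1.09e-11 in TACI short and 1.99 ± 0.05, adjusted p = 2.11e-20 between them. SREBF1, the gene of SREBP-1, measured 175, 173 and 175 CPM in the 3 control libraries, 65.9, 68.7 and 67.8 CPM in those of TACI long and 142, 139.8 and 127 CPM in those of TACI short, with -1.37 ± 0.05, adjusted p = 5.19e-17, -0.49 ± 0.05, adjusted p = 2.48e-09 and 0.88 ± 0.05, adjusted p = 7.11e-14 in the same order. Both had the order of SCD and FASN, control above TACI short above TACI long, without overlap.

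SREBF2, the gene of SREBP-2, measured 464, 466 and 471 CPM in control, 254, 266 and 265 CPM in TACI long and 508, 498 and 465 CPM in TACI short. It was lower in TACI long (-0.84 ± 0.04, adjusted p = 2e-13), did not pass in TACI short (-0.06 ± 0.04, adjusted p = 0.258) and was higher in TACI short than in TACI long by 0.78 ± 0.04, adjusted p = 3.03e-13. Its mean CPM in TACI short was above that of control while the fitted value was below 0, as for ELOVL4 and HADH, since the fit uses TMM factors and CPM does not. PPARA, the activator of oxidation genes, measured 5.09, 4.09 and 4.2 CPM in control, 5.32, 6.69 and 5.93 CPM in TACI long and 9.09, 9.37 and 9.19 CPM in TACI short and was higher in both lines (0.42 ± 0.11, adjusted p = 0.00175 and 0.92 ± 0.10, adjusted p = 6.5e-08). PPARGC1B, a coactivator of mitochondrial genes, measured 25.1, 31.2 and 29.2 CPM in control, 17.5, 17.5 and 16 CPM in TACI long and 18.5, 18.8 and 17 CPM in TACI short. It was lower in both lines (-0.75 ± 0.07, adjusted p = 6.96e-09 and -0.78 ± 0.07, adjusted p = 1.87e-09), and the difference between the isoforms did not pass (-0.04 ± 0.07, adjusted p = 0.635).

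Other enzymes of synthesis and elongation were split: of 14 tested, 5 were higher and 5 lower in TACI long and 5 higher and 4 lower in TACI short (6 higher and 3 lower with plain library totals). SLC25A1, the carrier that exports citrate from the mitochondrion, measured 137, 126 and 128 CPM in control, 87.2, 85.7 and 87.2 CPM in TACI long and 146, 132 and 132 CPM in TACI short and was lower in TACI long (-0.59 ± 0.06, adjusted p = 5.73e-08). MID1IP1, which promotes the polymerisation of acetyl-CoA carboxylase, measured 51.2, 49.96 and 53.8 CPM in control, 56.8, 55.9 and 55.6 CPM in TACI long and 133, 136 and 132 CPM in TACI short, a rise in TACI short of 1.24 ± 0.04, adjusted p = 9.4e-17. HSD17B12, a reductase of the elongation cycle, was lower in both lines (-0.37 ± 0.04, adjusted p = 7.23e-08 and -0.47 ± 0.04, adjusted p = 1.32e-09), and HACD3, a dehydratase of that cycle, was higher in TACI long (0.38 ± 0.04, adjusted p = 7.18e-08).

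Of 25 other oxidation genes tested, 13 were higher and 4 lower in TACI long, and 9 higher and 6 lower in TACI short, the latter 15 higher and 4 lower with plain library totals and 5 higher and 5 lower without TACI short replicates 2 and 3. ACADSB, for branched short chains, rose from 14.6, 15.4 and 15.6 CPM in control to 28.6, 30.03 and 28.7 CPM in TACI long (0.94 ± 0.06, adjusted p = 2.05e-12). SLC25A20, the carnitine-acylcarnitine carrier of the inner membrane, measured 36.4, 32.8 and 35.8 CPM in control, 49.3, 48.6 and 48.4 CPM in TACI long and 31.5, 29 and 31.8 CPM in TACI short, higher in TACI long (0.48 ± 0.06, adjusted p = 1.17e-07) and lower in TACI short (-0.31 ± 0.06, adjusted p = 4.05e-05). SLC22A5, which takes up carnitine, was also higher in TACI long (0.88 ± 0.11, adjusted p = 3.09e-07). CPT1B, the muscle form of CPT1, measured 2.61, 2.23 and 2.66 CPM in control, 0.638, 1.07 and 0.603 CPM in TACI long and 3.69, 3.84 and 2.34 CPM in TACI short and fell in TACI long (-1.69 ± 0.23, adjusted p = 5.18e-06). CPT1A and CPT1B were thus low in every library. In TACI short, EHHADH, the bifunctional enzyme of peroxisomes, was higher (1.15 ± 0.10, adjusted p = 8.91e-10) and ACAD9 lower (-0.49 ± 0.05, adjusted p = 3.34e-09).

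Genes of uptake, storage and esterification had 6 of 25 higher and 10 lower in TACI long, and 10 higher and 8 lower in TACI short (13 higher and 6 lower with plain library totals). LPIN1, a phosphatidate phosphatase of lipid synthesis, measured 35.7, 35 and 36 CPM in the 3 control libraries, 13.6, 16.1 and 15.1 CPM in those of TACI long and 62.9, 65.6 and 57.4 CPM in those of TACI short, which gave -1.25 ± 0.06, adjusted p = 2.38e-14 in TACI long, 0.67 ± 0.05, adjusted p = 2.35e-10 in TACI short and 1.92 ± 0.06, adjusted p = 2.63e-18 between them. DGAT2, which completes triglyceride synthesis, measured 2.91, 2.43 and 2.74 CPM in control, 3.45, 4.23 and 3.59 CPM in TACI long and 14.6, 16.5 and 16.4 CPM in TACI short and rose in TACI short (2.42 ± 0.10, adjusted p = 1.73e-15). ABHD5, the activator of triglyceride lipase, was lower in both lines (-0.62 ± 0.06, adjusted p = 2.03e-08 and -0.92 ± 0.06, adjusted p = 1.82e-11), and MGLL, monoglyceride lipase, was higher in TACI long (0.52 ± 0.04, adjusted p = 8.79e-10). SLC27A1, a fatty acid transport protein, was higher in TACI short (1.22 ± 0.11, adjusted p = 6.59e-10), and SLC27A4, of the same family, lower (-0.64 ± 0.04, adjusted p = 1.52e-11).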

How the data were processed

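The authors deposited 1 table of raw read counts per gene for each library, and per the file headers each also gives gene coordinates and exon length. The submitters' processing notes list STAR 2.4.0h, HTSeq, FastQC and the genome build hg38; the column layout is that of featureCounts; annotation release, strand setting and filters are not given in the sources used here. Per the labels' protocols the library kit was Nextera XT, which does not mark strand, so overlapping genes cannot be separated. Of 57500 gene identifiers, 56410 were named.

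CPM is the count over the library total, and TPM was computed from counts and exon length. All 9 libraries were fitted in 1 model using edgeR 4.0.16 and its quasi-likelihood F-test in robust form (R 4.3.3, TMM factors; filterByExpr with minimum count 10 and minimum total 15, leaving 16672 genes; 6 residual degrees of freedom; common BCV, the coefficient of variation between libraries, 0.0792). A gene was called where its Benjamini-Hochberg adjusted p, over all genes tested, was under 0.05. SE is the absolute log2 fold change over the square root of F. The code was tested on simulated counts with known changes. No library was a copy of another: between replicates, chi-square divided by its degrees of freedom was 2.45 to 18.2.

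The members, the gene lists and the tests were chosen with earlier results of these data known. All 34 members are accounted for. In the other lists, up to 3 called genes a comparison and direction, by adjusted p, could be named, and the text gives part of them. Marker lists of T and NK cells summed to 3.82 to 6.77 CPM, and those of epithelial, fibroblast, adipocyte and liver cells to 82 to 122 CPM, most of it EPCAM. One marker gene of the B-cell list is not reported here. Alternatives were other scalings, DESeq2 1.42.0, other filters, fits of each pair of groups, a replicate block, each library left out, and TACI short replicates 2 and 3 left out together. Motifs were searched on both strands of RefSeq windows (GRCh38.p14). Figures were drawn with matplotlib 3.10.9.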

Additional observations from a re-analysis of the deposited data

Results flagged for a closer look

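For 8 fatty acid genes the effects against control were called in opposite directions in TACI long and TACI short. In each, the difference between the lines was itself called by the edgeR test of TACI short against TACI long. Of all genes tested, 51.1% were called in TACI long, 62.6% in TACI short and 68.8% between the isoforms. The share of all genes that met the rule for these 8 was not counted, so the number does not set fatty acid genes apart. The difference, as the log2 value in TACI short minus that in TACI long, was -3.05 for SCD5, 0.99 for FADS3, 0.56 for ELOVL5, -0.49 for ELOVL1, -0.63 for ACAA1, -0.54 for ECHS1, -0.44 for HADHB and -0.35 for HADHA. That difference stayed called under all 18 alternatives for each of the 8 genes, but both effects against control did so for SCD5 and FADS3 alone. The TACI long call was lost under 5 alternatives for ELOVL5 and HADHB and under 1 for ELOVL1 and ACAA1. The TACI short call was lost under 2 for HADHA and ECHS1, plain library totals among them (-0.03, adjusted p = 0.379, and -0.09, adjusted p = 0.108). SCD5, a desaturase, is the one of these with the widest gap, and all 3 of its TACI long libraries lay above all 3 of its control libraries, with all TACI short libraries below. HADHA, HADHB, ECHS1 and ACAA1 act in beta-oxidation. Their effects against control were small, from 0.12 to 0.32 in TACI long and from -0.40 to -0.16 in TACI short.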

How the results depend on the processing

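Over 18 alternatives, 58 of the 76 called results for fatty acid genes kept their call and direction throughout, 18 lost the call under at least 1, and 9 that had not passed gained one. Of the called results, ME1 in TACI short alone changed sign, without TACI short replicates 2 and 3 (-0.39 against control, -0.61 against TACI long). ACSS2 against control, which had not passed, became a call of the opposite sign there (-1.71). Other values that had not passed crossed 0 in at least 1 alternative without a call: FADS2, ACADM, ACADVL, ELOVL4, HADH, ECI1, ACAA2, ACSS2 against TACI long (-0.84) and CPT1A (-0.14 against control and -0.54 against TACI long without those libraries). With each library left out, and with TACI short replicates 2 and 3 left out together, 9 to 11 synthesis, desaturation and elongation genes were called in TACI long, 11 to 14 in TACI short and 11 to 15 between the isoforms, and 7 to 11, 7 to 10 and 10 to 12 oxidation genes. Over all genes these settings gave 7308 to 9382, 9146 to 11588 and 10462 to 12661 calls, against 8518, 10435 and 11474.

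Replicate numbers were not taken to pair the libraries: over the 3 groups, same-numbered libraries had correlations of -0.272 to 0.434 in their deviations from the group means. Those of control with TACI short were all positive, 0.434, 0.213 and 0.177, though control replicate 3 correlated more with TACI short replicate 2 (0.232). With the replicate block, 11, 12 and 13 synthesis genes and 10, 9 and 11 oxidation genes were called in TACI long, in TACI short and between the isoforms. The block ended the call of ME1 between the isoforms (1.57, adjusted p = 0.0595) and brought in ECI1 in TACI short (-0.12, adjusted p = 0.0318) and ACSS2 between the isoforms (1.68).

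Plain library totals changed the direction split of all genes in TACI short against control from 5256 higher and 5179 lower to 6873 and 3771, and between the isoforms from 5870 and 5604 to 7216 and 4345. The filter on low counts left ELOVL7 and ACSL6 untested, and ACSS2, ME1, CPT1A and ACADS had fewer than 70 counts in any library, which limits what can be said of them.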
